A study of Mus musculus with 2 samples.

Results

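The fucosyltransferase genes are 10 genes of the mouse array, Fut1, Fut2, Fut4, Fut7, Fut8, Fut9, Fut10, Fut11, Pofut1 and Pofut2, taken by name out of 22180 genes measured. Each was read from probe sets that carry its symbol and no other, 11 probe sets in all, and for Fut11, which has 2, the one with the higher mean stood for the gene. The study compared spleen cells of Fx-/- mice given fucose with spleen cells of Fx-/- mice given none. There was 1 array per group, made from 9 ng of total RNA. Both arrays therefore carry the loss of Fx, now named Gfus, and differ by label in the fucose supply alone. By their sex-linked genes, given below, they also differ in sex. The labels used here give no age, no sex and no number of animals per sample, and there was no wild-type array among the samples used. The cells were labelled conventional type 1 dendritic cells (cDC1), and were enriched with beads that removed B220 and CD11b cells and then kept CD11c cells.

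Fucosyltransferases are enzymes of the Golgi or the endoplasmic reticulum that move fucose from GDP-fucose onto glycans or straight onto proteins. Gfus makes GDP-fucose from mannose, so cells without it can only fill that pool by salvage of free fucose, and all of these enzymes draw on it. In blood cells the best known products are sialyl Lewis X, the glycan that selectins bind, the core fucose of N-glycans on receptors and antibodies, and the O-fucose on Notch that ligand binding depends on. An array measures the RNA of the enzymes, not their activity or their products.

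The cells held more than cDC1, and on each array every T cell marker measured lay above every cDC1 marker measured. Xcr1, which marks cDC1, had log2 intensities of 2.90 with fucose and 3.43 without. Itgax, which encodes CD11c, had 3.83 and 3.86, and Clec9a was not on a probe set of its own. Of the 13 cDC1 markers measured, 9 were higher and 4 lower off fucose. At least 2-fold higher were Irf8 (2.50), Naaa (2.39), Tlr3 (2.01) and Wdfy4 (1.56), in log2 differences, whereas Ly75, which T cells also express, had -0.93. The part of other cells in these values was not tested. The 8 T cell markers measured ran from 8.91 to 11.20 on fucose and from 8.43 to 11.05 off fucose, and all 8 were lower off fucose, with differences from -0.50 to -0.16. All 11 granulocyte precursor markers were higher off fucose, 9 of them at least 2-fold, and their summed intensity was 119 on fucose and 2992 off fucose. All 7 erythroid markers measured were at least 2-fold higher off fucose, with sums of 79.9 and 514. Of 6 monocyte and macrophage markers, 3 were at least 2-fold higher (Lyz2, Csf1r and Ccr2). Their summed intensity was 1432 and 2063, nearly all of it from Ly6c2, which T cells also express, and 43.6 and 168 without Ly6c2. The sex-linked genes also separated the arrays, with Xist at 8.26 and 2.82. The Y-linked genes Uty (2.14 and 5.26), Kdm5d (2.50 and 5.44) and Eif2s3y (2.34 and 3.60) went the other way. The on-fucose array thus had the pattern of female cells and the off-fucose array that of male cells. Sex and fucose supply cannot be told apart in any difference given here. With bulk RNA, fewer cells of a type and less RNA per cell cannot be told apart.

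Of the 10 fucosyltransferase genes, 4 had clear signal on both arrays: Fut8, Fut11, Pofut1 and Pofut2. As a yardstick for empty probe sets, 1390 olfactory and vomeronasal receptor genes, which spleen cells are not known to use, were taken after earlier results had been seen. On the log2 scale their 95th percentile was 2.83 with fucose and 2.87 without. The cDC1 marker Xcr1 (2.90 on fucose) lay just above this mark on that array. Fut7 lay below this mark on fucose and above it off fucose. Fut1, Fut2, Fut4, Fut9 and Fut10 lay below it on both arrays, so their values below are differences within the range of empty probe sets and measure no change of the genes. The same 5 genes also fell short of the expression filter, a mean log2 intensity of 2.88, which is the median of all genes. The nearest of them was Fut4 at 2.79, and the nearest gene past the filter was Fut7 at 2.98. The on-fucose value of Fut7 (2.71) was below the filter, so Fut7 passed through its off-fucose value (3.25).

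**Figure D1:**
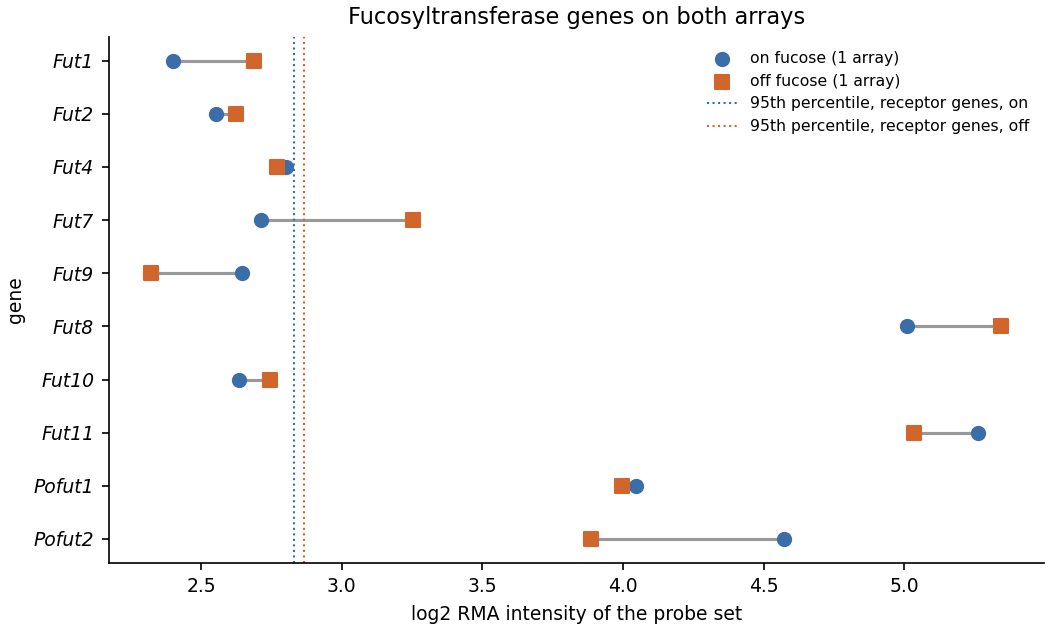
Log2 RMA intensity (x axis) of each fucosyltransferase gene (y axis) on the on-fucose array (circles) and the off-fucose array (squares), 1 array each; dotted lines mark the 95th percentile of 1390 receptor genes on each array (2.83 and 2.87). Fut8, Fut11, Pofut1 and Pofut2 lie to the right of both lines, Fut7 crosses them, and the other 5 genes stay to the left.

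None of the 10 genes differed 2-fold between the arrays. Among all 22180 genes, 1.2% were at least 2-fold higher off fucose and 0.257% at least 2-fold lower, and among the 11090 genes past the filter 2.37% and 0.514%. At the lower limit of 1.5-fold, 1 member was lower off fucose (Pofut2) and 0 were higher, where 2.28% of all genes were lower and 3.21% higher. Among genes past the filter these shares were 4.27% and 5.77%, with 1 and 0 of 5 members. Differences were also centred on the T cell markers, which adds 0.32 to each difference. By that limit 0 of the 5 filtered members were then lower and 2 were higher. These were Fut8, and Fut7, which passed the filter through its off-fucose value. The filtered genes then went from 473 lower and 640 higher to 78 (0.703%) and 1714 (15.5%). Fut1 also passed the limit with that centring, with both values in the receptor-gene range. At 2-fold the filtered genes went from 57 lower and 263 higher to 20 and 505 with that centring, and still none of the 10 members reached 2-fold. Differences are off minus on fucose throughout, on the log2 scale, and a single array per group allowed no test.

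The family had no common direction on the authors' scale, where 5 members were higher and 5 lower off fucose. T cell centring turned Fut4, Fut11 and Pofut1 from lower to higher, which left 8 of 10 higher with a median of 0.34. That centring moved the median of all filtered genes from -0.05 to 0.27. These counts include the 5 genes in the receptor-gene range on both arrays. The median difference of the 10 was 0.02, against -0.00081 for all genes. Over the 5 members past the filter it was -0.05, the same as over the 11090 genes that passed. Those 5 ran from -0.69 in Pofut2 to 0.54 in Fut7, with 3 lower and 2 higher, or 1 and 4 with T cell centring. Among the 11090 filtered genes 56.5% were lower off fucose on the authors' scale. Fut7 is in this set through its off-fucose value, so its place among the higher members is no separate result.

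**Figure D2:**
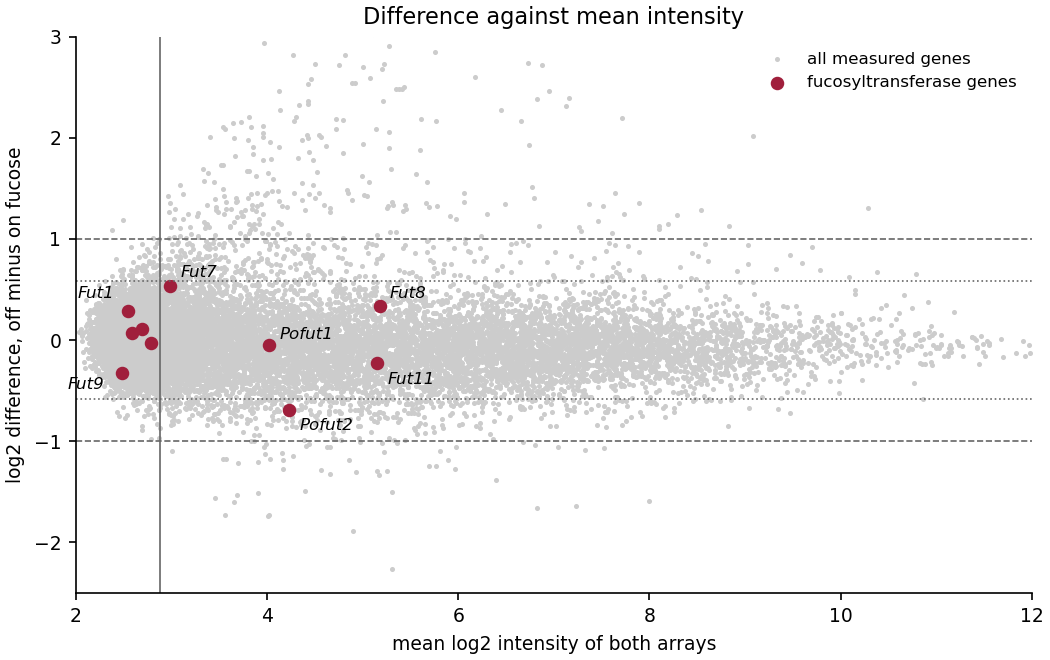
Log2 difference, off minus on fucose (y axis), against the mean log2 intensity of both arrays (x axis) for all measured genes (grey) and the 10 fucosyltransferase genes (red); dashed lines mark 2-fold, dotted lines 1.5-fold and the vertical line the expression filter at 2.88. All 10 red points lie between the dashed lines, and Pofut2 (-0.69) is the 1 point beyond a dotted line; 38 genes lie outside the axes.

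On the authors' scale Pofut2 had the largest measured difference of the family, and with T cell centring those of Fut7 and Fut8 were larger. Pofut2 encodes the O-fucosyltransferase of the endoplasmic reticulum that modifies thrombospondin type repeats, found in many secreted matrix proteins. Its intensity was 23.8 on fucose and 14.8 off fucose, or 4.57 and 3.88 on the log2 scale. The off-fucose value was thus 1.61-fold lower (-0.69). It lay just outside the central 90% of the 1109 genes of like intensity, which ran from -0.64 to 0.84, with 4.15% of those genes lower still. Pofut2 stayed lower under each of 5 other scaling and pseudocount settings, with -0.37 (1.29-fold) as the smallest size, under T cell centring. A pseudocount cannot turn a sign, and the arrays already had near-equal distributions. These settings are therefore only a limited check of direction. The T cell markers were all lower off fucose too, and their part in the value of Pofut2 was not tested.

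Pofut1, its counterpart for EGF repeats such as those of Notch receptors, had near-equal values. It had intensities of 16.5 and 16.0, a log2 difference of -0.05, at the middle of genes of like intensity (median -0.04). Quantile normalisation, loess and T cell centring turned its sign, to 0.27 with the last of these. The difference between the pair of protein O-fucosyltransferases rests on 1 array each and was not tested.

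Fut8 is the only fucosyltransferase known to add the core fucose of N-glycans. Its intensity was 32.2 on fucose and 40.6 off fucose, or 5.01 and 5.34 on the log2 scale, which is 1.26-fold higher off fucose (0.33). This lay inside the central 90% of genes of like intensity (-0.66 to 0.82), with 86.5% of them below it. It was higher off fucose under each of those 5 settings, from 0.27 to 0.65, which is the same limited check of direction.

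Fut10 and Fut11 were long listed as fucosyltransferases of the Lewis type and are now described as O-fucosyltransferases of EMI domains, a module of some extracellular matrix proteins. Fut11 had intensities of 38.4 and 32.8, which is 1.17-fold lower off fucose (-0.23), again inside the central 90% of its neighbours in intensity. Its second probe set had intensities of 7.41 and 6.91, in the receptor-gene range off fucose, and does not bear on the direction. With T cell centring the difference of Fut11 turned to 0.09. Fut10 had log2 intensities of 2.64 and 2.75, both in the range of the receptor genes.

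Fut7, Fut4 and Fut9 build Lewis X type structures, and Fut7 is the leukocyte enzyme whose product is sialyl Lewis X. Fut7 had intensities of 6.56 on fucose and 9.53 off fucose, or 2.71 and 3.25 on the log2 scale. It was the member with the largest positive difference (0.54, 1.45-fold). Because the on-fucose value lay among the receptor genes, the fold is uncertain. The off-fucose value was 1.34-fold above the receptor-gene mark of the on-fucose array, on the authors' scale. Among the 1390 receptor genes, 15 (1.08%) had a positive difference as large, and among the 1109 genes of like intensity 96.7% lay below Fut7. The value was 0.59 with median centring, which is past 1.5-fold, and 0.27 with a pseudocount of 8. Granulocyte precursors are known to carry Fut7, and all 11 of their markers were higher on the same array; 4 of these 11 lay below the receptor-gene mark on fucose and 0 off fucose. Their part in the value of Fut7 was not tested.

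Fut4, the main Lewis X enzyme of myeloid cells, could not be compared, since it had log2 intensities of 2.80 on fucose and 2.77 off fucose, both under the receptor-gene mark. Fut9, best known from brain and kidney, had 2.65 and 2.32. Its difference of -0.32 lay below the 5th percentile of genes of like intensity (-0.26), yet both values were in the receptor-gene range, and 70 receptor genes (5.04%) had a negative difference as large. With T cell centring the difference of Fut9 was -0.0055.

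Fut1 and Fut2 make the H antigen, the precursor of the ABO blood group structures, mostly outside white blood cells. Fut1 had log2 intensities of 2.40 and 2.69, and Fut2 had 2.55 and 2.63. All 4 values were in the receptor-gene range. A shift like that of Fut1 (0.29) or more was found in 136 receptor genes (9.78%). RNA of either gene was thus not detectable above that range on these arrays, which does not show that it was absent.

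**Figure D3:**
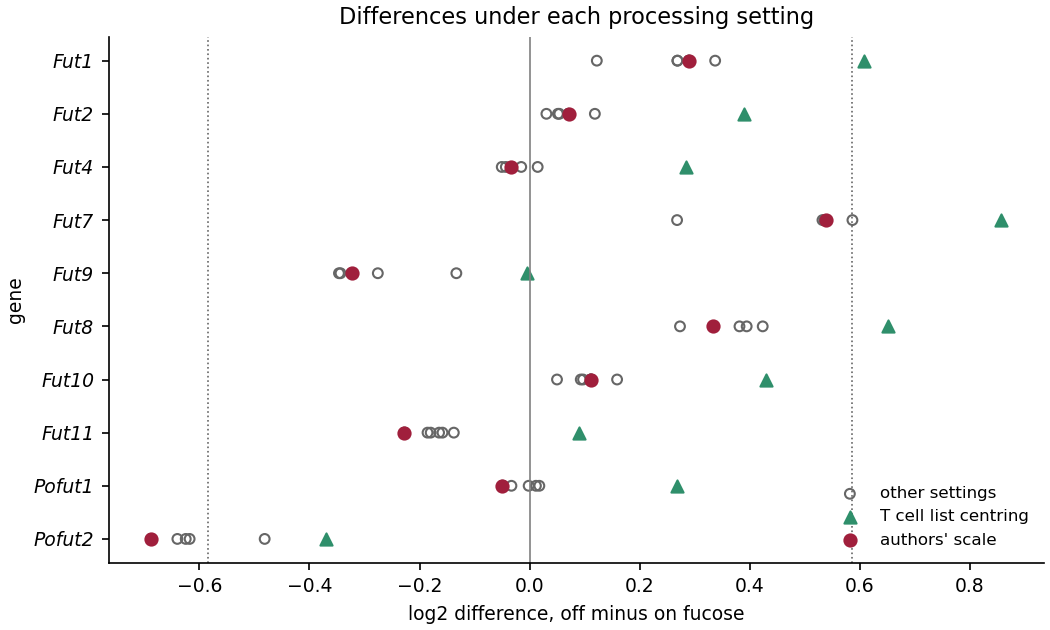
Log2 difference, off minus on fucose (x axis), of each fucosyltransferase gene (y axis) on the authors' scale (red), under T cell list centring (triangles) and under the other processing settings (open circles); dotted lines mark 1.5-fold. Pofut2 stays left of 0 and Fut7 and Fut8 right of 0 under every setting shown, while Fut4, Fut11 and Pofut1 have triangles on the other side of 0. The filter settings repeat the red value, as does the mean of probe sets for genes with a single probe set, and a pseudocount cannot turn a sign.

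The genes that supply GDP-fucose, and those that work on the same glycans, also stayed within 2-fold, apart from the few named here. Of 11 genes of GDP-fucose supply, 8 were lower and 3 higher off fucose, 0 of them by 1.5-fold, with a median of -0.16 that T cell centring turned to 0.16. Counts of lower genes in this and the next lists stand beside 56.5% of all filtered genes lower off fucose. The transporter gene Slc35c1, which brings GDP-fucose into the Golgi, had -0.56. The fucokinase gene Fcsk of the salvage route was in the receptor-gene range off fucose. Its on-fucose value was 1.35-fold above the mark of the off-fucose array, before any centring. Gfus had -0.39, a value that does not check the genotype, since both arrays carry the same one, and Gmds, the enzyme before it, had -0.38. Of the 3 fucose removal genes, the fucosidases Fuca2 and Fuca1 had 0.23 and 0.08, while Fuom, the fucose mutarotase, was in the receptor-gene range off fucose. The on-fucose value of Fuom was 1.14-fold above the mark of the off-fucose array, before any centring.

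The genes of N-glycan processing and branching listed beside Fut8, not all of which act before it, had a median of -0.14 over 11 genes. Of these, 7 were lower and 3 higher, and the median was 0.18 with T cell centring. Man1a2 (-0.50) and Man2a1 (-0.43), both mannosidases of the Golgi, were followed by Mgat2 (-0.29), a GlcNAc transferase, and Man1c1 (-0.21). Fut8 itself lay above all 11 of them, the highest of which had 0.20. The genes that help build the acceptor glycans of the Lewis enzymes had a median of -0.05 over 9 genes, which T cell centring turned to 0.27. The sialyltransferase gene St3gal4, which acts before Fut7 in making sialyl Lewis X, had 0.52, going from 4.50 to 5.02. B3gnt5 had -0.50, C1galt1, which makes the core of O-glycans, -0.41, and B3gnt3 -0.28.

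Around Pofut1, the genes that extend O-fucose or add other sugars to EGF repeats had a median of -0.28 over 6 genes, with 5 lower, and 0.04 with T cell centring. Lfng, a Fringe enzyme that extends O-fucose on Notch, had -0.71, and was the 1 gene of this list past 1.5-fold. The other Fringe genes, Mfng and Rfng, had -0.25 and -0.02. Eogt had -0.50, Poglut1 -0.30, and B3glct, which extends the O-fucose that Pofut2 adds, 0.49. Pofut2 and B3glct thus had opposite signs, from 1 array each, and this contrast was not tested. Among the genes of like intensity to Pofut1, where B3glct (3.66 and 4.15) also lay, the central 90% ran from -0.63 to 1.10. The EGF repeat proteins Notch1 (-0.40), Notch2 (0.28) and Notch4 (0.22) went both ways. Jag1 was in the receptor-gene range off fucose, and its on-fucose value was 1.30-fold above the mark of the off-fucose array, before any centring.

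Few acceptors of Pofut2 or of Fut10 and Fut11 passed the filter. Of 9 thrombospondin repeat genes, Cfp, the properdin gene of the complement system, went from 3.17 to 5.08 (1.91), and Thbs1 had 0.12. Of 5 EMI domain genes, Emilin2 went from 4.01 to 4.96 (0.96) and Emilin1 had 3.41 on both arrays. In the selectin list Cd34, a marker of blood progenitors, was in the receptor-gene range on fucose (2.71). Its off-fucose value (4.91) was 4.24-fold above the mark of the on-fucose array, and Cd34 passed the filter through the off-fucose array. In the same list Cd44 had 0.22, Glg1 -0.21 and Spn -0.21. Cfp and Cd34 were higher on the array that also had the higher granulocyte precursor and erythroid markers, and the part of those cells was not tested. Abo, the gene that extends the H antigen, had 2.80 and 2.55, in the receptor-gene range.

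**Figure D4:**
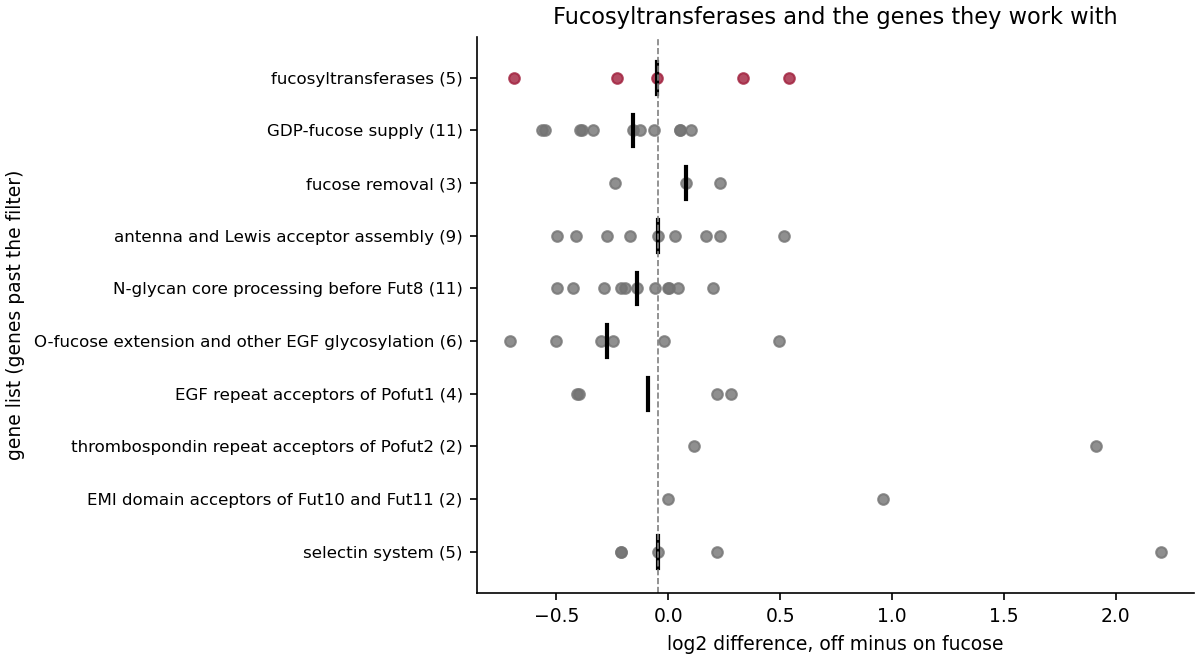
Log2 difference, off minus on fucose (x axis), of each gene past the expression filter in the fucosyltransferase family (red) and in 9 lists of genes they work with (grey; y axis, number of genes in parentheses); black bars are medians of lists with at least 3 genes, and the dashed line is the median over all 11090 filtered genes (-0.05). The fucosyltransferases spread from -0.69 to 0.54 around that line, and Cfp (1.91) lies far to the right, as does Cd34, whose plotted value rests on an on-fucose level in the receptor-gene range. The value of 0.54 is Fut7, whose on-fucose level is also in that range.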

How the data were processed

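The authors deposited probe set intensities for 41345 probe sets on each array, summarised with RMA per the submitters' processing notes. Its version and settings, and the genome build, are not given in the sources used here. Although RMA usually gives log2 values, these ran to 9512, so they were read as linear intensities and log2 was taken of each; every difference rests on that reading. The sorted log2 values of both arrays differed by 0.028 on average and 0.20 at most, so a shift common to all genes may have been removed. Names came from the platform annotation (23521 probe sets with 1 symbol, 1814 with several, 16010 with none listed), and the symbols of all 11 member probe sets were the same in RefSeq by Entrez ID. Genes at or above the median mean intensity passed the filter (11090). Genes of like intensity are the same 1 of 20 equal bins. Where only 1 array was above its receptor-gene mark, that value is set against the mark of the other array. Such folds hold on the authors' scale and leave out noise and centring, so they are not a minimum. Counts used 2-fold and 1.5-fold. The text names all members and, of each companion list, up to 4 genes past the filter with the largest differences, plus Gfus, Mfng and Rfng. The members and lists were chosen with earlier results of these data known. Alternatives were other probe set, filter, scaling, pseudocount and threshold choices. The counting was tested on simulated data. The planted differences were larger than that of any member and the noise was below the spread of these arrays. That test therefore does not bear on differences of the size reported here. Python 3.11.15 and pandas 2.3.3 were used. Arrays have no depth; their number limits the precision.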

Additional observations from a re-analysis of the deposited data

How the results depend on the processing

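No paired analysis was possible because there is a single array per group, which also means that none could be left out. A member's value was called moved when it shifted by more than the robust SD of genes of like intensity, and a list median when it shifted by 0.1 or more. T cell list centring adds 0.32 to every difference by construction. It gave medians of 0.34 for the members and 0.27 for those past the filter. It also gave 0.16 for GDP-fucose supply, 0.39 for fucose removal, 0.27 for Lewis acceptor assembly, 0.18 for N-glycan processing, 0.042 for O-fucose extension, 0.23 for EGF repeat acceptors and 0.27 for the selectin system. Members at least 1.5-fold higher numbered 3 with it and 1 with median centring (Fut7), against 0, and members at least 1.5-fold lower numbered 0 with it and with a pseudocount of 8, against 1. With no filter all 10 members counted as passing, against 5. The selectin median of -0.05 was 0.12 with no filter and -0.21 with the mean of probe sets or the filter at the 67th percentile. Over all filtered genes, 165 were 2-fold higher and 24 lower with the pseudocount, 118 and 12 were past 3-fold, 375 and 195 were past 1.5-fold with the pseudocount, and 385 were 1.5-fold higher at the stricter filter. Low signal limits the values of the 6 dim members.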

Other observations

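Gcnt1 builds the branch of O-glycans that carries sialyl Lewis X on leukocytes. It went from 2.47, in the receptor-gene range, to 3.06 off fucose, which is 1.17-fold above the mark of the on-fucose array. It fell short of the expression filter and was chosen after its value was seen, and other genes of its list were lower, such as C1galt1 (-0.41). Selplg, which encodes the main protein carrier of these glycans, had 11.58 on fucose and 11.53 off fucose.

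Sec1, a relative of Fut1 and Fut2 that lies beside Fut2 in the genome, was found only on 2 probe sets that also name Ntn5. These had log2 differences of 0.22 and 0.30, and the values cannot be given to either gene.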
